A study of Mus musculus with 4 samples.

Results

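Phase II conjugation enzymes attach a polar group to odorants, steroids, drugs and the products of cytochrome P450 reactions, which ends their activity in most cases and lets transporters export them. UDP-glucuronosyltransferases (genes of the *Ugt1* and *Ugt2* families) add glucuronic acid, cytosolic sulfotransferases (*Sult*) add sulfate, glutathione S-transferases (*Gst*) add glutathione, and arylamine N-acetyltransferases (*Nat*) add an acetyl group. The olfactory mucosa is known for high levels of such enzymes, mainly in the sustentacular cells that support the olfactory receptor neurons (ORNs) and in the Bowman glands, where they clear odorants and inhaled compounds. The expression of these genes was compared between young adult and aged mice. A gene was a member if the RefSeq accession of a non-control probe led to a *Ugt1*, *Ugt2*, *Sult*, *Nat1* or *Nat2* symbol or to a *Gst* symbol of the alpha, mu, pi, theta, omega or zeta class. This rule gave 55 genes with 69 probes, out of 45616 genes with 56605 probes on the array. The members comprised 3 *Ugt1*, 9 *Ugt2*, 21 *Sult*, 20 *Gst* and 2 *Nat* genes. Of the 65 gene symbols that fit the rule in the RefSeq gene table, 10 had no probe matched here, among them *Gsta1*, *Ugt2a2* and 6 *Ugt1* genes.

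Total RNA of septal nasal mucosa, which the labels call olfactory epithelium, was measured on 4 one-color Agilent arrays. The arrays fell into a group of 2 from young adult mice, labelled 8 weeks of age, and a group of 2 from aged mice, labelled 16 months. All mice were males of the C57BL/6J strain per the labels, each array carried the pooled RNA of 5 mice, and it is not stated whether the pools of one age share animals. The methods count fewer mice per age for gene analyses than separate pools would need, so the pools may share animals and may not be independent. SEs and P-values measure only the spread between these pools, not between mice. One label text speaks of silica aspiration and lung, against the sample titles and the methods, and was disregarded. Between 63.1 and 76.8% of the non-control spots of an array were well above background, and no spot was saturated. Young adult array 1 and aged array 1 shared a slide and a scan, and young adult array 2 and aged array 2 came from separate slides. All 8 sustentacular, 5 Bowman gland and 9 mature ORN markers were well above background on all 4 arrays, so the labelled tissue was represented in every pool. Sex-linked genes went against the label of male mice: *Xist*, the RNA of the inactive X chromosome, was at 612 to 645 and well above background on every array, whereas of 8 Y-linked genes with 11 probes only *Sry* was above background, on 1 array, and none exceeded 63. This held in both ages alike.

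A level below is the normalized intensity of a gene on an array. It can be compared between arrays for one gene, but not between genes, because each probe has its own brightness. A summed level adds the levels of the genes of a list on one array, so it mostly follows the brightest probes. A log2 fold change is the aged mean minus the young adult mean of the log2 levels, and a gene was called if P was below 0.05 and the Benjamini-Hochberg FDR was below 0.25 in limma over all 45604 genes with a value on every array. A called gene was counted as a differentially expressed gene (DEG) if it also had a mean level of 100 or more and a fold-change of 1.5 or more. The smallest P that an exact two-sided permutation test allows for 1 gene in this design is 0.333, so the calls rest on limma's spread, which is shared across genes. The RNA comes from whole tissue, in which fewer cells of a type and less RNA per cell cannot be told apart.

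Detection differed between the enzyme families. Of the 55 members, 36 (65.5%) were well above background on all 4 arrays, against 58.6% of all genes tested. This was the case for 19 of 20 *Gst* genes and both *Nat* genes, but for 11 of 21 *Sult* genes and for 4 of 12 *Ugt* genes. In the *Ugt2* family *Ugt2a1*, an olfactory glucuronosyltransferase that acts on odorants, was the only one of 9 genes detected on all arrays. The 15 members that no array detected were *Ugt2b1*, *Ugt2b35*, *Ugt2b36*, *Ugt2b5*, *Gstt4*, *Sult3a1*, *Sult3a2*, *Sult6b2* and all *Sult2a* genes other than *Sult2a8*, and their levels reached at most 48. *Ugt2a3*, *Ugt2b34*, *Ugt2b37* and *Ugt2b38* were detected on 1 to 3 of the arrays. Most of the undetected genes are best known from the liver, and of 4 hepatocyte markers *Apoa1* and *Fgb* were above background on no array, *Alb* on 2 and *Serpina1a* on all 4 (169 and 176 at the young adult age, 104 and 139 when aged).

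The members were more often higher than lower in aged mice, by small amounts, and 6 of them were called higher. *Sult6b1*, *Nat1* and *Sult1e1* rose as DEGs, and *Gsta2*, *Gstm3* and *Ugt2a3* rose without meeting the limits of a DEG. These 6 of 55 members (10.9%) stood against 1.65% of all genes called higher. No member was called lower, against 2.33% of all genes. At an unadjusted P below 0.05 in limma, 12 of 55 members were higher and 3 were lower. Of all 45604 genes, 2760 (6.05%) were higher and 3230 were lower at this limit. The 3 DEGs among the members were all higher, where 0.814% of all genes were DEGs higher and 1.15% were DEGs lower in aged mice. The log2 fold change was positive for 39 members (70.9%), against 51.5% of all genes, and negative for 16. Its median was 0.16 beside a median of 0.01 over all genes. Both aged arrays lay above both young adult arrays for 24 members (43.6%), against 24.2% of all genes, and below them for 6 members (10.9%), against 21.8% of all genes. The 36 members detected on every array held 5 of the 6 calls (13.9%), where 2.11% of the 26727 such genes were called higher and 3.07% lower. Of these 36 members 28 had a positive log2 fold change, against 14428 of the 26727 genes.

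**Figure D1:**
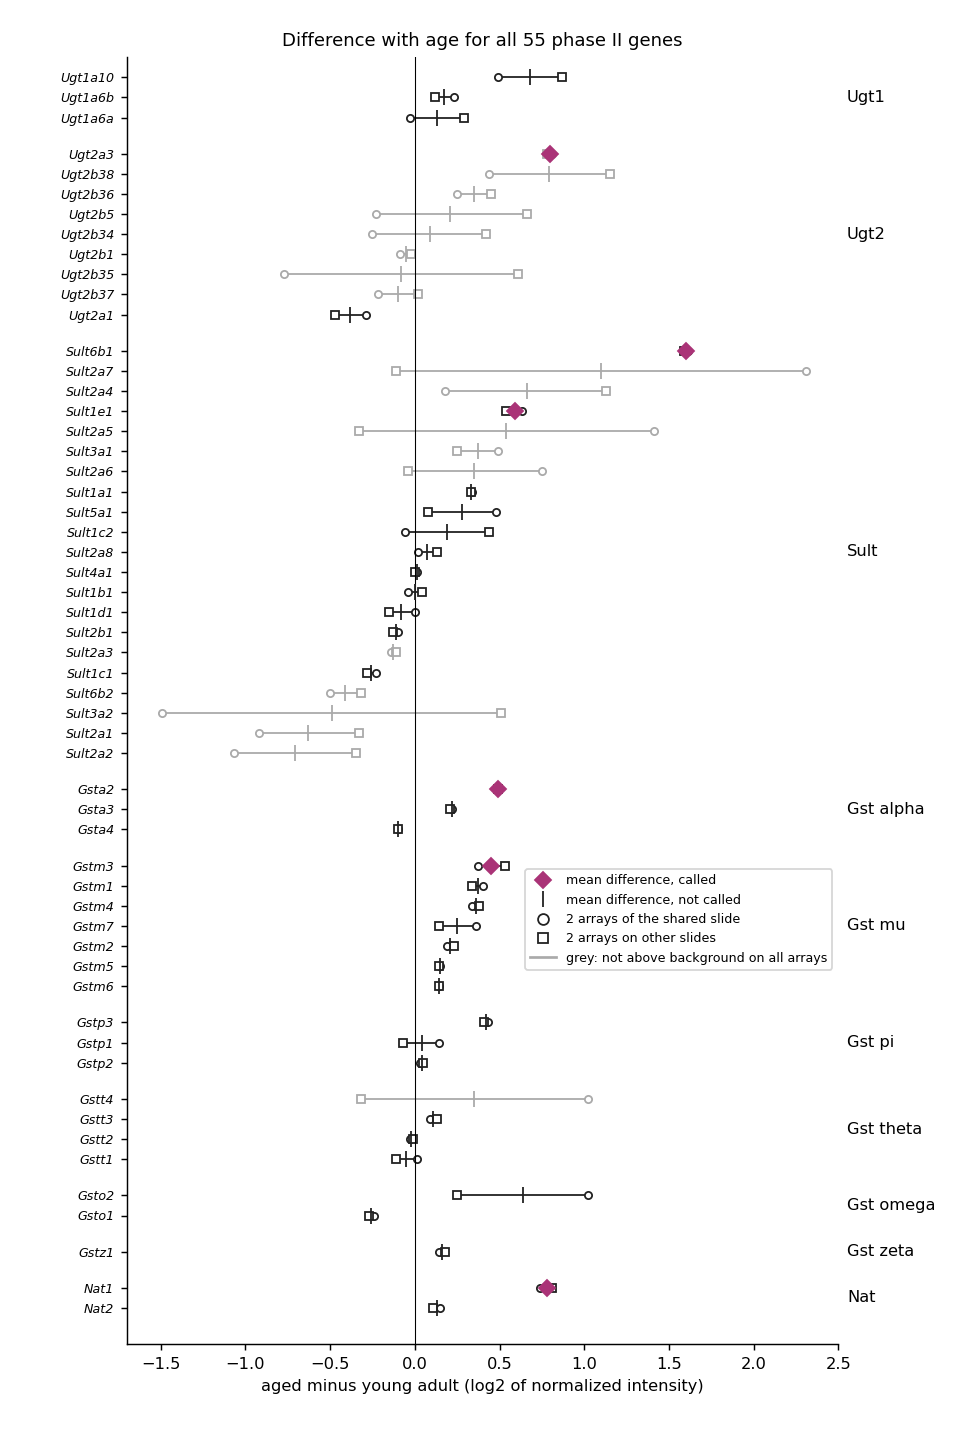
Log2 fold change (x axis, aged minus young adult, log2 of normalized intensity) of each of the 55 members, grouped by enzyme class. Diamonds and vertical ticks give the mean difference, open circles the difference between the 2 arrays of the shared slide and open squares that between the 2 arrays on other slides. Genes not above background on all arrays are grey, and most of the widest gaps between circle and square are among them, such as *Sult2a7* with 2.31 and -0.11.

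Whether the calls depended on a single array cannot be told, because leaving 1 out leaves 1 age with 1 array. Only the fold changes are therefore given for these fits. With an array left out, the log2 fold change was 1.6 to 1.61 for *Sult6b1*, 0.73 to 0.82 for *Nat1* and 0.54 to 0.64 for *Sult1e1*. It was 0.48 to 0.51 for *Gsta2*, 0.4 to 0.52 for *Gstm3* and 0.74 to 0.84 for *Ugt2a3*. With all 4 arrays, no member was called at an FDR below 0.05, and the smallest FDR of any gene was 0.0945.

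Promoter sequences are shown for the called genes detected on all arrays and for *Gstm5*, a mu gene that was not called but holds both motifs searched. They run from 250 bases before to 50 bases after the RefSeq transcript start (assembly GRCm38.p6) and are written on the strand of the gene. Capitals mark the core of the antioxidant response element, TGACNNNGC, bound by NRF2, and the core of the xenobiotic response element, GCGTG, bound by the aryl hydrocarbon receptor, on either strand. The windows are chr17:78906943-78907242, minus strand for *Sult6b1*, chr5:87591562-87591861, minus strand for *Sult1e1*, chr9:78347096-78347395, minus strand for *Gsta2*, chr3:107969125-107969424, minus strand for *Gstm3* and chr3:107895604-107895903, plus strand for *Gstm5*. No window for *Nat1* was in the table.
Sult6b1: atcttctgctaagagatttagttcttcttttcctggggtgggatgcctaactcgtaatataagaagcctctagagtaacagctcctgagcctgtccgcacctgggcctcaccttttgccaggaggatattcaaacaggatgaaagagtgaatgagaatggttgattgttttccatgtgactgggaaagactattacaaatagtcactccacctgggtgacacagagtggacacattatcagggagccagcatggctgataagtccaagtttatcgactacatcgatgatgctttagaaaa
Sult1e1: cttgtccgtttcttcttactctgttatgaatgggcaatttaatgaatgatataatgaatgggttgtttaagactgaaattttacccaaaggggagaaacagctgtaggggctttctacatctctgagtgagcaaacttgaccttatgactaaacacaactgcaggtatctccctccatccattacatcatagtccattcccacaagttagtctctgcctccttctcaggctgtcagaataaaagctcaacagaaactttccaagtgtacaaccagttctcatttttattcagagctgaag
Gsta2: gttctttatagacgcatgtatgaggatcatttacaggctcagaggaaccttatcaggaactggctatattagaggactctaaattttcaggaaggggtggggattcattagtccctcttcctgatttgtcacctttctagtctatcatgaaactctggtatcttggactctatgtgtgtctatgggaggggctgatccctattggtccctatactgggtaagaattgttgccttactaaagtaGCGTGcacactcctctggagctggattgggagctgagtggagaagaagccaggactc
Gstm3: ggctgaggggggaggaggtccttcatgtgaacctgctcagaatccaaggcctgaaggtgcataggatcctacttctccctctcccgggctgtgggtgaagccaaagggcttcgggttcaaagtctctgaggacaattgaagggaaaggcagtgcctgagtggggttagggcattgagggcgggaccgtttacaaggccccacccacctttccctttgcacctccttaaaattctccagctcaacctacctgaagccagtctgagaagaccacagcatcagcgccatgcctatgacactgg
Gstm5: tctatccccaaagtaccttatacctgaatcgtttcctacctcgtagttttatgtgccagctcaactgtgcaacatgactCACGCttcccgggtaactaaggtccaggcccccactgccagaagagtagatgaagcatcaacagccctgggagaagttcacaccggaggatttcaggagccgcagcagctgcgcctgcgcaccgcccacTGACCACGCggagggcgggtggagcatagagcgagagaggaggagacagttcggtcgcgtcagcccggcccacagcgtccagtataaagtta

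The antioxidant core was in the window of 3 of 46 members with a promoter in the table (6.5%), against 14.0% of 27025 genes. The members were *Gsta3*, *Gstm5* and *Gstm7*. The xenobiotic core was in 8 of 46 members (17.4%), against 35.2% of genes. They were *Gsta2*, *Gstm1*, *Gstm5*, *Gstp1*, *Gstp3*, *Sult1b1*, *Sult1d1* and *Sult2b1*, of which *Gsta2* was called. In *Gsta2* the core began 7 bases before the start. In *Gstm5* the antioxidant core began 42 bases before the start and one xenobiotic core overlapped it, beginning at 38. A match is only a run of letters, and these windows do not reach the distal elements.

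The sulfotransferases held the largest change of all members. *Sult6b1* was at 588 and 594 on the young adult arrays and at 1798 and 1793 on the aged arrays. The levels of the 2 arrays of an age were almost equal, and the groups lay far apart. Its log2 fold change was 1.60 (SE 0.0738, FDR = 0.168 by limma), a 3.04-fold rise, with 1.61 on the shared slide and 1.59 on the other slides. *Sult1e1*, the estrogen sulfotransferase, which inactivates estradiol, was at 13088 and 13002 in young adult mice and at 20225 and 18949 in aged mice. The aged levels did not overlap with the young adult levels, and the rise of 0.59 on the log2 scale (SE 0.082, FDR = 0.208) was at the 1.5-fold limit of a DEG.

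The other sulfotransferases that were detected on all arrays were not called, with differences in both directions. *Sult1a1*, which acts on phenols, was at 2837 and 2909 in young adult mice and at 3580 and 3659 in aged mice, and both of its probes were higher, but its difference of 0.33 was not called (FDR = 0.283). *Sult1c1* was at 43398 and 43489 in young adult mice and at 36897 and 35709 in aged mice. It was the detected sulfotransferase with the most negative log2 fold change, -0.26 (SE 0.0758, FDR = 0.339), and the aged arrays lay below the young adult arrays without a call. *Sult5a1* (0.28), *Sult1c2* (0.19), *Sult2a8* (0.07), *Sult1d1* (-0.08) and *Sult2b1*, a sulfotransferase of cholesterol and other sterols (-0.11), were not called. *Sult4a1*, a brain form, was at 11045 and 11173 in young adult mice and at 11119 and 11198 in aged mice, with a log2 fold change of 0.01. *Sult1b1* had a log2 fold change of 0.00 as the mean of a probe at 0.16 and a probe at -0.16. Over the 21 *Sult* genes, 13 (61.9%) were positive, against 51.5% of all genes, and 8 were negative. Their median was 0.07. It was 0.37 after scaling of the scanner's processed signal to the 75th percentile, 0.01 on the shared slide alone and 0.00 without aged array 2. This median included 10 genes without a detected level. Over the 11 detected genes, the median was also 0.07.

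**Figure D2:**
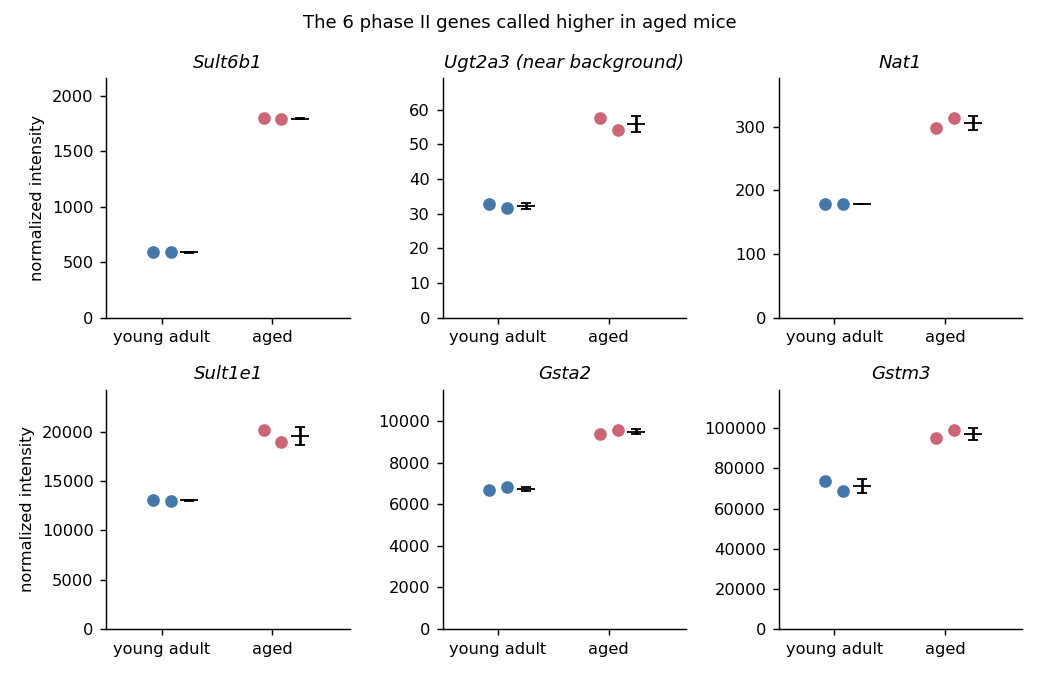
Normalized intensity (y axis, linear from 0) of the 6 members called higher in aged mice, on the young adult (blue) and aged (red) arrays. Each point is 1 array of pooled RNA, and the bars beside the points are the mean ± SD of 2 arrays. In each panel both aged arrays lie above both young adult arrays, as for 24.2% of all genes, and the levels of *Ugt2a3* are near background. The genes were selected by their call on these same arrays, so this separation is no further evidence.

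The glutathione S-transferases differed mostly in one direction, with *Gsta2* and *Gstm3* called higher and all genes of the mu class higher on both aged arrays. Over 20 genes, the median log2 fold change was 0.18, with 16 positive (80%, against 51.5% of all genes) and 4 negative. Both aged arrays were above both young adult arrays in 13 (65%), against 24.2% of all genes. They were below in 3 (15%), against 21.8% of all genes. In the alpha class, *Gsta2*, whose promoter is shown above with a xenobiotic core, was at 6685 and 6824 in young adult mice and at 9417 and 9606 in aged mice. The groups did not overlap, and the rise was 0.49 on the log2 scale (SE 0.0753, FDR = 0.214), with the same value on the shared slide and on the other slides. *Gsta3* was at 31418 and 30638 against 36703 and 35453, a difference of 0.22 that was not called (FDR = 0.398). *Gsta4*, which conjugates aldehydes formed from oxidized lipids, had a log2 fold change of -0.10 and was not called.

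All 7 mu class genes had a positive log2 fold change, from 0.14 to 0.45 with a median of 0.25. In all 7 both aged arrays were above both young adult arrays, against 24.2% of all genes. *Gstm3* was at 73592 and 68748 in young adult mice and at 95180 and 99341 in aged mice. It was the only mu gene called, with a log2 fold change of 0.45 (SE 0.086), and its FDR of 0.25 lay just under the limit. The call of *Gstm3* was lost when flagged spots were kept (FDR = 0.252), after scaling to the 75th percentile (FDR = 0.275) and after cyclic loess (FDR = 0.266). *Gstm1* was at 32762 and 33257 against 43103 and 42174, with a log2 fold change of 0.37 (FDR = 0.262), and its probes gave 0.32 and 0.42. *Gstm4* was at 3219 and 3155 against 4062 and 4093, with a log2 fold change of 0.36 (FDR = 0.265). Neither was called with these settings. *Gstm7* (0.25), *Gstm2* (0.21), *Gstm5* (0.15) and *Gstm6* (0.14) had smaller differences, and the probes of *Gstm6* gave 0.28 and 0.00. The 7 genes lie side by side in one cluster of the mouse genome, and they are close in sequence. Probe sequences were not used here, so how far one probe also detects the RNA of a related gene was not tested, in this cluster as in the *Ugt1*, *Sult2a*, *Gsta* and *Gstp* groups.

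The remaining classes differed among themselves. In the pi class, *Gstp3* was at 130 and 140 in young adult mice and at 175 and 186 in aged mice, and its log2 fold change of 0.42 was not called (FDR = 0.275). *Gstp1* and *Gstp2* had log2 fold changes of 0.04 each. In the theta class the detected genes *Gstt3*, *Gstt2* and *Gstt1* had log2 fold changes of 0.11, -0.02 and -0.05, and none was called. *Gstz1*, an isomerase of tyrosine breakdown, had a log2 fold change of 0.16 (FDR = 0.497). *Gsto1*, which also reduces oxidized vitamin C, was at 35857 and 34751 in young adult mice and at 30273 and 28873 in aged mice. Its aged levels lay below its young adult levels for both probes (-0.25 and -0.26), without a call (FDR = 0.36). The log2 fold change of 0.64 for *Gsto2* came from a probe near background that stood at 173 on aged array 1 and at 26.9 to 42.9 on the other arrays. The brighter probe of *Gsto2* was at 354 and 371 in young adult mice and at 363 and 375 in aged mice (0.02).

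**Figure D3:**
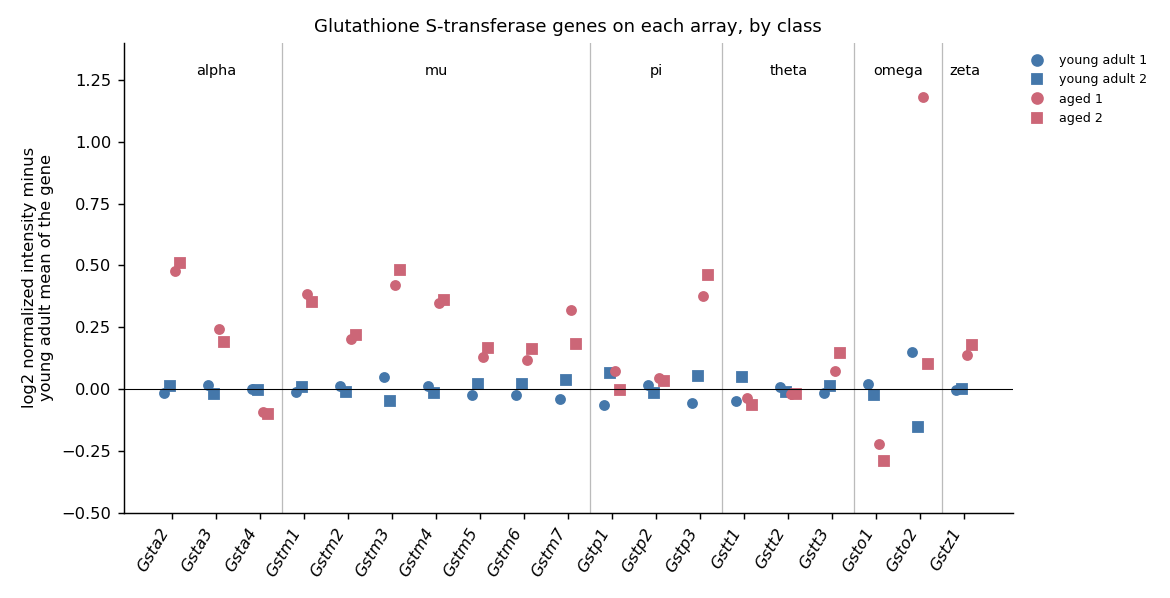
Log2 normalized intensity of the 19 glutathione S-transferase genes that were detected on all arrays, minus the young adult mean of each gene (y axis), by class. Each point is 1 array, blue for young adult and red for aged, and circles mark the arrays of the shared slide. The aged points of all 7 mu genes lie above their young adult points, whereas those of *Gsta4* and *Gsto1* lie below and *Gsto2* is set by aged array 1.

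Glucuronosyltransferases were mostly dim and showed both directions. The median log2 fold change of the 12 *Ugt* genes was 0.15, but it was -0.06 on the shared slide alone and 0.56 after scaling of the processed signal to the 75th percentile, where the median of all genes was 0.066. *Ugt2a3* was called, with levels of 32.7 and 31.6 in young adult mice and of 57.5 and 54.2 in aged mice (log2 fold change 0.80, SE 0.0831, FDR = 0.185). It was not above background on either young adult array and was above background on 1 of 2 aged arrays, so the size of its rise is uncertain. The size depended on the background correction, with a log2 fold change of 0.57 at a normexp offset of 16, 0.36 at an offset of 50, 0.47 without background correction and 1.92 for the processed signal after quantile normalization. Its mean level was below the limit of 100, and it lost its call after either scaling to the 75th percentile (FDR = 0.317, and 0.307 for the processed signal). *Ugt2a1* was at 174341 and 179646 in young adult mice and at 142983 and 129767 in aged mice. It had the most negative log2 fold change of the 36 members detected on all arrays, -0.38 (SE 0.0926), and the groups did not overlap, but it was not called (FDR = 0.297). It was called lower with a normexp offset of 16 (FDR = 0.242) or 50 (FDR = 0.141).

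In the *Ugt1* family, whose transcripts differ in their first exon and share the others, *Ugt1a10* was at 176 and 163 in young adult mice and at 247 and 298 in aged mice. Both aged arrays were higher, with a log2 fold change of 0.68 (SE 0.134), and its FDR of 0.256 was just over the limit. It was called after both scalings to the 75th percentile, after cyclic loess and with both normexp offsets, with an FDR from 0.11 to 0.241. *Ugt1a6a* had a log2 fold change of 0.13 and *Ugt1a6b* of 0.17. The 3 probes of *Ugt1a6b* gave 0.25, 0.26 and 0.01. *Ugt2b38* was at 55.9 and 40.2 against 75.6 and 89.5, above background on 1 array of each age (log2 fold change 0.79, FDR = 0.321).

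Among the N-acetyltransferases, which acetylate aromatic amines, *Nat1* rose and *Nat2* was not called. *Nat1* was at 178 on both young adult arrays and at 298 and 313 on the aged arrays. The rise was 0.78 on the log2 scale (SE 0.0788, FDR = 0.185), or 1.72-fold. *Nat2*, the gene next to it, was at 549 and 593 against 608 and 640, with a log2 fold change of 0.13 (FDR = 0.617).

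Neighbouring genes did not share one direction everywhere. *Sult1e1*, *Sult1d1* and *Sult1b1* follow the *Ugt2* genes in a run of 13 genes, 12 of them members and *Ugt2a2* without a probe. Along this run the log2 fold changes were 0.80 for *Ugt2a3*, 0.79 for *Ugt2b38*, -0.38 for *Ugt2a1*, 0.00 for *Sult1b1*, -0.08 for *Sult1d1* and 0.59 for *Sult1e1*. The mu cluster was the only run of more than 3 measured members with a single sign.

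The genes that supply, complete, reverse or control conjugation were counted from gene lists, beside the shares of all genes given above. Of the genes of UDP-sugar supply and glucuronide hydrolysis, 0 of 6 were called in limma, and the median log2 fold change was 0.09. Only 1 of them had an unadjusted P below 0.05 in limma (*Ugp2*, 0.40, FDR = 0.262). Of the genes of sulfate transport and of sulfate donor supply and turnover, 0 of 7 with a probe were called. Only *Slc26a1*, with the most negative log2 fold change of the list (-0.49, FDR = 0.251), had an unadjusted P below 0.05 in limma. Their median was -0.16, and 6 of 7 were negative, with *Papss2*, a synthase of the donor, at -0.22 and *Papss1* at -0.17.

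In the glutathione supply and mercapturate pathway 1 of 15 genes rose, 1 fell, and the median was 0.17. At an unadjusted P below 0.05 in limma, 6 of the 15 were higher and 1 was lower. *Chac1*, an enzyme that breaks down glutathione, was at 2912 and 2571 in young adult mice and at 6057 and 5912 in aged mice (1.13, FDR = 0.178). *Ggt6*, of the gamma-glutamyltransferase family, was at 575 and 558 against 296 and 301 (-0.92, FDR = 0.178). In the same family *Ggt7* (0.39, FDR = 0.263) and *Ggt1* (0.31, FDR = 0.34) were higher on both aged arrays without a call. *Ggt5* (-0.29), above background on 3 arrays, was not called. *Gclc* (0.21), *Gclm* (0.03) and *Gss* (0.02), which make glutathione, were not called.

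Among 19 other conjugating enzymes 2 rose and 1 fell. *Mgst2*, a microsomal glutathione transferase, was at 3184 and 3255 against 5129 and 5411 (0.71, FDR = 0.189). *Ephx1*, the microsomal epoxide hydrolase, was at 63812 and 65172 against 84689 and 90463 (0.44, FDR = 0.248). *Hpgds*, a glutathione transferase that makes prostaglandin D and is found in mast cells and other immune cells, was at 223 and 203 against 97.7 and 102 (-1.09, FDR = 0.178). Of 4 macrophage markers 2 fell and all were lower on both aged arrays, against 21.8% of all genes (summed level 5138 and 5554 against 3909 and 3966). The part of macrophages in the fall of *Hpgds* was not tested. Of the 10 exporters *Abcb1a*, which encodes P-glycoprotein, fell from 1320 and 1317 to 894 and 929 (-0.53, FDR = 0.209), and none rose. *Abcb1a* is also expressed in endothelial cells. The 4 markers of these cells were all lower on both aged arrays, against 21.8% of all genes (1 called, summed level 2911 and 2914 against 1983 and 2151). The part of endothelial cells in the fall of *Abcb1a* was not tested.

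Of 15 regulators, 12 had a positive log2 fold change, the median was 0.05, and none was called higher. The only call was *Nr1i2*, which encodes the xenobiotic receptor PXR. It fell from 104 and 109 to 63.5 and 73.5 (-0.64, FDR = 0.238), and was above background on 3 of 4 arrays. *Nfe2l2*, which encodes NRF2, had a log2 fold change of 0.26 (FDR = 0.374), and *Ahr*, the aryl hydrocarbon receptor, of -0.18 (FDR = 0.451). Neither was called, and *Maff* (0.41, FDR = 0.253) was just over the limit. Among 12 NRF2 target genes outside the members, *Hmox1*, heme oxygenase, rose from 3708 and 3932 to 5749 and 5611 (0.57, FDR = 0.209), while *Nqo1*, a quinone reductase, was at 8670 and 8774 against 6601 and 7398 and was not called (-0.32, FDR = 0.351). The median of these targets was 0.08. Of 16 nasal phase I enzymes, *Cyp1a2* (0.54, FDR = 0.209) and *Cyp4b1* (0.46, FDR = 0.233) rose, none fell, and the median was 0.14.

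**Figure D4:**
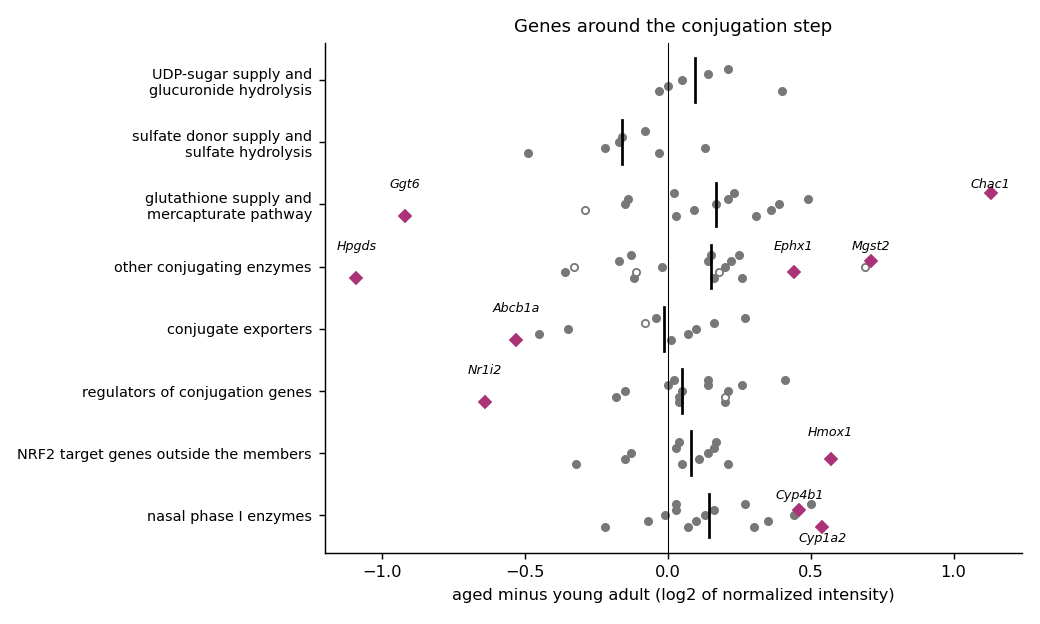
Log2 fold change (x axis, aged minus young adult, log2 of normalized intensity) of the genes of 8 lists around the conjugation step. Each point is a gene, named diamonds are called genes, open points were not above background on all arrays, and black bars are list medians. In the sulfate donor list 6 of 7 genes lie below 0, and calls lie on both sides.

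Levels of cell type markers are given beside these shifts, and their part in them was not tested. The 8 sustentacular markers had a median log2 fold change of 0.02 and none was called, and their summed level was 1061701 and 1067003 in young adult mice and 1097066 and 1098137 in aged mice. *Cyp2g1*, *Cyp2a5* and *Cbr2* of this list are also among the phase I enzymes. The 5 Bowman gland markers had a median of -0.09 (summed level 529167 and 523175 against 464302 and 482184), with *Muc5b*, a mucin, called higher (0.44, FDR = 0.245). This sum mostly follows *Dmbt1* (-0.38) and *Gpx6* (-0.09), neither of them called, and 2 of the 5 markers were positive. All 9 mature ORN markers were higher on both aged arrays, against 24.2% of all genes. Their median was 0.15 (summed level 470305 and 459141 against 514750 and 522023), and *Stoml3* was called (0.43, FDR = 0.244). Larger differences were found for fibroblast markers, of which 4 of 6 fell and all were negative, with a median of -1.11 (summed level 248179 and 223497 against 124423 and 116395). Of the 5 immature ORN markers all were negative, with a median of -0.34 (summed level 24539 and 23738 against 19242 and 19506), and *Dpysl3* fell (-0.40, FDR = 0.247). Of the 4 basal cell markers *Krt5*, a basal keratin, fell (-0.49, FDR = 0.216), and the median was -0.29 (summed level 28463 and 28833 against 23098 and 22609). Among 5 respiratory secretory markers, *Muc5ac*, an airway mucin, fell by 2.10 and *Ltf*, lactoferrin, by 0.67 on the log2 scale (FDR = 0.178 and 0.201). The median of the 5 was -0.14, with a summed level of 733284 and 727153 against 657085 and 667941. Of these markers 4 were negative and 1 was positive, *Bpifa1*, which was higher on both aged arrays without a call (0.19, FDR = 0.459). Of 6 pituitary markers 2 were called higher in aged mice, *Prl* (4.96, FDR = 0.102) and *Gh* (37.3 and 37.1 against 326 and 336, above background on 2 of 4 arrays). *Pomc* (0.25), *Lhb* (0.26), *Cga* and *Tshb* were not called. *Cga* was above background on 1 array and *Tshb* on 0.

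The number of members called moved with the processing, and the cause was not tested. When dim probes were left out, 13 of 37 members were called higher, where 11.7% of all genes were, and with an intensity trend in eBayes 19 of 55, where 7.92% of all genes were. The settings that called any member lower called only *Ugt2a1*, *Sult1c1* and *Gsto1*.

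**Figure D5:**
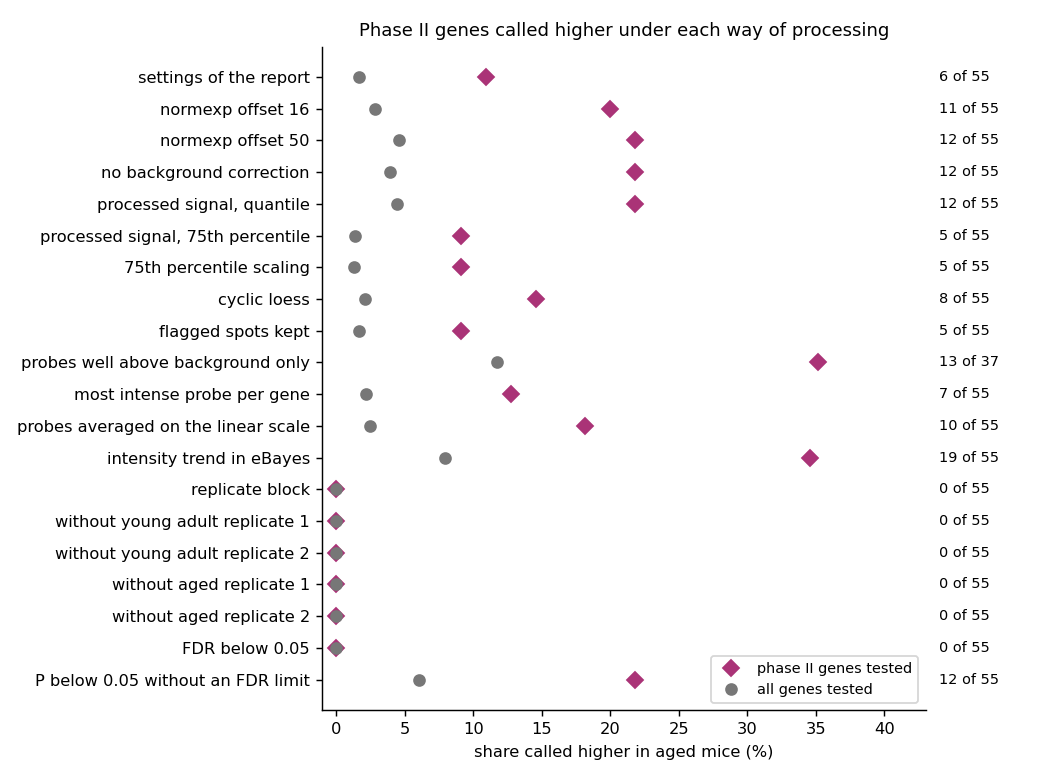
Share of the phase II genes tested (diamonds) and of all genes tested (circles) that was called higher in aged mice (x axis, %) under each way of processing, with the number of members at the right. The share of members was above that of all genes wherever any gene was called, and no gene was called in the 4 fits with an array left out, with the replicate block or at an FDR below 0.05.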

How the data were processed

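The authors pooled RNA of septal nasal mucosa from 5 mice per array, labelled it with Cy3, hybridized Agilent one-color arrays and read them with the software Feature Extraction 11.0.1.1. The deposited files hold, for each spot, the median signal intensity, the median background intensity, a processed intensity from which the scanner software had subtracted the background, and quality flags, not normalized between arrays. The series table of values matched the processed intensity in all 62976 rows of every array.

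Here the median intensities were background-corrected with normexp at offset 0 (limma 3.58.1, R 4.3.3), control spots and outlier-flagged spots were left out (88 to 118 non-control spots per array), spots of a probe were averaged, quantile normalization was applied, and log2 values were averaged over the probes of each gene. The design had named the mean signal, which was not among the columns, and the median signal was used. Symbols came from the RefSeq gene table of GRCm38.p6, which matched 32994 of 56605 probes (58.3%), and the other probes kept the array's identifier. The order of neighbouring genes was taken from the gene starts in this table, while the array design uses another build. Promoter windows came from a RefSeq table of GRCm38.p6, which held 46 of the 55 members.

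Differences were fitted with limma (lmFit and eBayes, no covariates) on all 4 arrays and 45604 genes, as the paper's methods describe, with 2 residual and 1.38 prior degrees of freedom. The pipeline was tested on simulated data. The members, the lists and the marker genes were chosen with earlier results of these data known, so no list was tested as a set and list counts are descriptions. Genes named are the called members, the largest rise and fall of each class among detected genes, members whose probes disagree, called list genes and defining markers. Of the other members and list genes, those with several probes or near the limits were chosen after their values were seen. The restriction of the background to detected genes was also chosen after seeing the data. Alternatives were no background correction, offsets of 16 and 50, the processed intensity, scaling to the 75th percentile, cyclic loess, flagged spots kept, dim probes left out, other ways to average probes, an intensity trend, a replicate block, each array left out, the shared slide alone and other limits. Precision is limited by having few arrays and, at dim probes, by signal over background.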

Additional observations from a re-analysis of the deposited data

How the results depend on the processing

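The number of members called higher was 6 with the settings of the report and 5 to 8 with either scaling to the 75th percentile, cyclic loess, flagged spots kept or the most intense probe per gene. It was 11 with a normexp offset of 16, 12 with an offset of 50, without background correction, with the processed signal after quantile normalization and with P below 0.05 without an FDR limit, 13 with only probes well above background, 10 with probes averaged on the linear scale and 19 with an intensity trend. It was 0 at an FDR below 0.05, and 0 to 0 over the fits with each array left out, which leave one age with 1 array that is assumed to vary like the others. Members called lower were 0 with the settings of the report and 1 with an offset of 16. They were 2 without background correction and with the processed signal after quantile normalization. They were 3 with an offset of 50, with only probes well above background, with a trend and with P alone. Of all 45604 genes, 1691 were called lower with an offset of 16 and 2475 with an offset of 50. Without background correction 2239 were, and with the processed signal after quantile normalization 2343. With a trend 3518 were called lower and with P alone 3230. With only probes well above background 3706 of 29495 genes were called lower, beside the 3 of 37 members. The 3 member DEGs numbered 2 to 4 elsewhere, and 0 at an FDR below 0.05 and with any array left out (0 to 0).

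The replicate block called 0 members higher and 0 member DEGs, with the 6 called members at an FDR of 0.433 and an unadjusted P from 0.00132 to 0.0321. The replicate numbers are not known to pair the arrays, and deviations of same-numbered arrays from their group means correlated at -0.0779 across all genes and at 0.0817 across genes with a level of 100 or more. The arrays numbered 1 share a slide, and those numbered 2 do not. A slide as a random block could not be fitted, because only 1 slide holds more than 1 array.

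The median log2 fold change of *Gst* genes was 0.15 with an offset of 50, without background correction and with only probes well above background, 0.14 with the most intense probe, 0.20 on the linear scale, and 0.14 to 0.19 with an array left out. That of *Ugt* genes was 0.56 and that of *Sult* genes 0.37 with the processed signal scaled to the 75th percentile, -0.06 and 0.01 on the shared slide alone, and 0.06 to 0.31 and 0.00 to 0.12 with an array left out. The cause of these shifts was not tested. *Gstt1*, which was not called, turned from -0.05 to 0.01 on the shared slide alone. Among the members not called, *Ugt1a6a* (0.13), *Sult1c2* (0.19), *Ugt2b34* (0.09) and *Ugt2b5* (0.21) also turned there, to -0.03, -0.06, -0.25 and -0.23.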
